A study of Arabidopsis thaliana with 12 samples.

Results

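Seedlings that carry the chimeric repressor GLK1-SRDX were compared with wild-type Arabidopsis thaliana seedlings, across all genes on the array. The comparison used the 4 arrays titled for 35S GLK1-SRDX and the 4 titled wild type, 8 of the 12 arrays in the series. The other 4 arrays came from the glk1 glk2 double mutant, which lacks both GLK genes. They show where the repressor line differs from it. They also enter the probe filter and the shared estimate of spread behind every p-value. Per its title, the series concerned tolerance to an air pollutant and the closing of stomata. All groups were ecotype Columbia-0, 2 weeks old, untreated and harvested as whole seedlings. The medium was MS agar containing 1% sucrose, the temperature 23 °C and the light cycle 16 h on and 8 h off. The repressor transgene is driven by the 35S promoter, which is active in most tissues, and the labels do not say whether 1 line or several were sampled. As far as the labels say, the GLK1-SRDX seedlings keep their own GLK1 and GLK2 genes. Many seedlings were pooled per sample, and 1 µg of total RNA was labelled with the dye Cy3 for each one-colour array. Whether the 4 samples of a group were grown separately is not stated, and the p-values then measure only a spread among these samples that may be technical.

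GLK1 and GLK2 (GOLDEN2-LIKE) are transcription factors that activate nuclear genes for chloroplasts, among them those for chlorophyll-binding antenna proteins and chlorophyll synthesis. Plants without both are pale green. SRDX is a short repression motif derived from the SUPERMAN protein. Fused to an activator, it is used to turn that activator into a dominant repressor of its target genes, also where related factors are still present.

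A value below is a log2 signal relative to the 75th percentile of its array, so 0 marks that percentile and values of an array can be set against those of another array for the same gene. A difference is GLK1-SRDX minus wild type on this log2 scale. Its standard error and p come from 1 fit to all 12 arrays, so their spread includes the glk1 glk2 arrays. "Rose", "fell" and "changed" mean a Benjamini-Hochberg adjusted p under 0.05 in limma's fit across all tested genes. The adjusted p of a gene said to have risen or fallen also stayed under 0.05 whichever 1 of the 12 arrays was left out, unless a larger value is given. Such a value is the largest of the 12, and leaving out other arrays ended the call of many of these genes as well. "At least N-fold" is used where the dimmer group had arrays not well above background, and it holds only under the background subtraction used here.

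The 8 arrays had 75th percentiles between 1881 and 2407 intensity units and 63.9% to 67.7% of probes well above background. Correlation over all tested genes ran from 0.986 to 0.993 between GLK1-SRDX arrays and from 0.976 to 0.993 between wild-type arrays. The arrays came from 3 slides. Slide 3 held all 4 GLK1-SRDX arrays, slide 1 held wild-type replicates 1 and 2, and slide 2 held wild-type replicates 3 and 4. Slide and GLK1-SRDX therefore cannot be told apart in any result that follows.

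Of 20640 tested genes, 2972 changed, which is 14.4% of them. The 1671 rises made up 8.1% of the tested genes and the 1301 falls 6.3%. The falls were larger: 608 genes fell and 268 rose by at least 2-fold, and 141 fell and 20 rose by at least 4-fold. A further 1337 of the changed genes differed by under 1.5-fold. All 4 arrays of one group lay above all 4 of the other for 5805 genes, 28.1% of those tested, and for 2886 of the 2972 that changed. The median difference over all tested genes was 0.01, and the 5th and 95th percentiles were -1.11 and 0.59. Dim genes fell more often than bright ones: 13.7% of the 2002 genes with a mean signal between -6 and -4 fell, against 2.28% of the 3028 genes above 2. With wild-type arrays of slide 1 alone 1073 genes changed, and with those of slide 2 alone 735. Leaving out GLK1-SRDX replicate 1, 2 or 3 or wild-type replicate 1 or 2 gave between 1523 and 1826 changed genes, and leaving out one of the other 3 of these 8 arrays gave 2035 to 2396. Without a glk1 glk2 array, which here changes only the shared spread, the count was 2318 to 4444. Scaling to the median in place of the 75th percentile moved the median of all genes to 0.20 and gave 78.9% rises among the changed genes, against 56.2% here. Directions of small changes are therefore relative to that scaling.

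**Figure D1:**
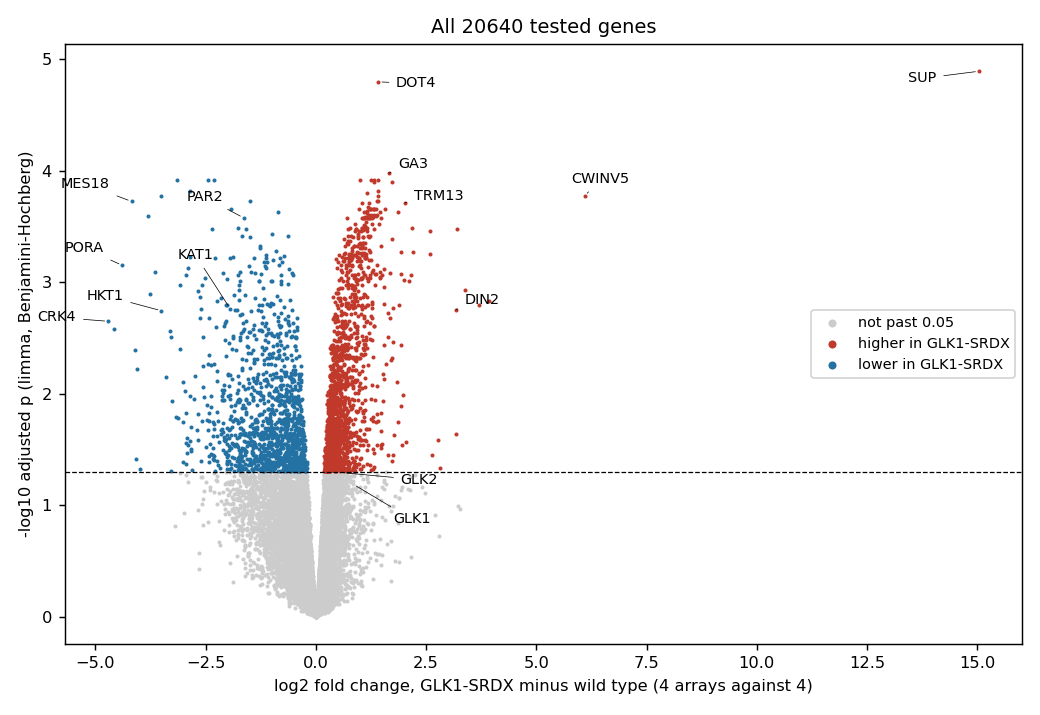
Each point is 1 tested gene, with its log2 difference between GLK1-SRDX and wild type (4 arrays against 4) on the horizontal axis and -log10 of its adjusted p on the vertical axis. Red points rose, blue points fell and the dashed line marks an adjusted p of 0.05; SUP stands far from all other genes at 15.04, and GLK1 and GLK2 lie just under the line.

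GLK1, the gene whose protein was fused to the repressor, did not pass the threshold in the transgenic seedlings. GLK1 (AT2G20570) read 0.01, 0.04, -0.15 and 0.48 on wild-type replicates 1 to 4 and 1.02, 1.07, 0.91 and 0.76 on GLK1-SRDX replicates 1 to 4. The groups did not overlap, but the difference of 0.85 ± 0.28, or 1.8-fold, missed the threshold with an adjusted p of 0.0649. GLK2 (AT5G44190), its closest relative and no part of the transgene, read 2.47, 2.09, 1.85 and 2.54 in wild type and 2.95, 3.03, 2.72 and 2.74 in GLK1-SRDX. Here too the groups did not overlap, and the difference of 0.62 ± 0.19 missed the threshold with an adjusted p of 0.0513. Both genes passed when only the 8 arrays compared were fitted, with adjusted p of 0.00649 for GLK1 and 0.0323 for GLK2. Whether the GLK1 probe lies in a stretch that the fusion transcript carries was not tested. In glk1 glk2 the differences from wild type were -2.23 for GLK1 and -7.51 for GLK2, and the direct contrast of the lines was 3.07 ± 0.28 for GLK1 with an adjusted p of 0.000233.

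The largest change on the whole array was in SUP (AT3G23130), which encodes SUPERMAN, a zinc finger repressor of flower development and the protein from which SRDX was derived. SUP read -9.72, -6.23, -6.64 and -9.41 in wild type, with 2 of the 4 arrays above background. It read 7.17, 7.18, 7.18 and 6.61 in GLK1-SRDX. All GLK1-SRDX arrays were far above all wild-type arrays. The difference of 15.04 ± 0.75 had an adjusted p of 1.28e-05, and the signal was at least 15670-fold higher. On the glk1 glk2 arrays SUP was above background on 0 of 4. Under the alternatives that gave SUP a value, its difference from wild type stayed between 11.19 and 15.63. The probe's sequence is not used here, so whether it reads the transgene was not tested. The nearest tested gene on each side was named after its values were seen. RLP37 differed by 0.92 ± 0.18 (adjusted p = 0.00766) and the ethylene receptor gene ETR2 differed by -0.65 ± 0.19 (adjusted p = 0.0465, and 0.103 without GLK1-SRDX replicate 1). RLP37 lay at -0.20 under normexp background correction, an alternative way to subtract the local background, and did not pass against the wild-type arrays of slide 2 alone.

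**Figure D2:**
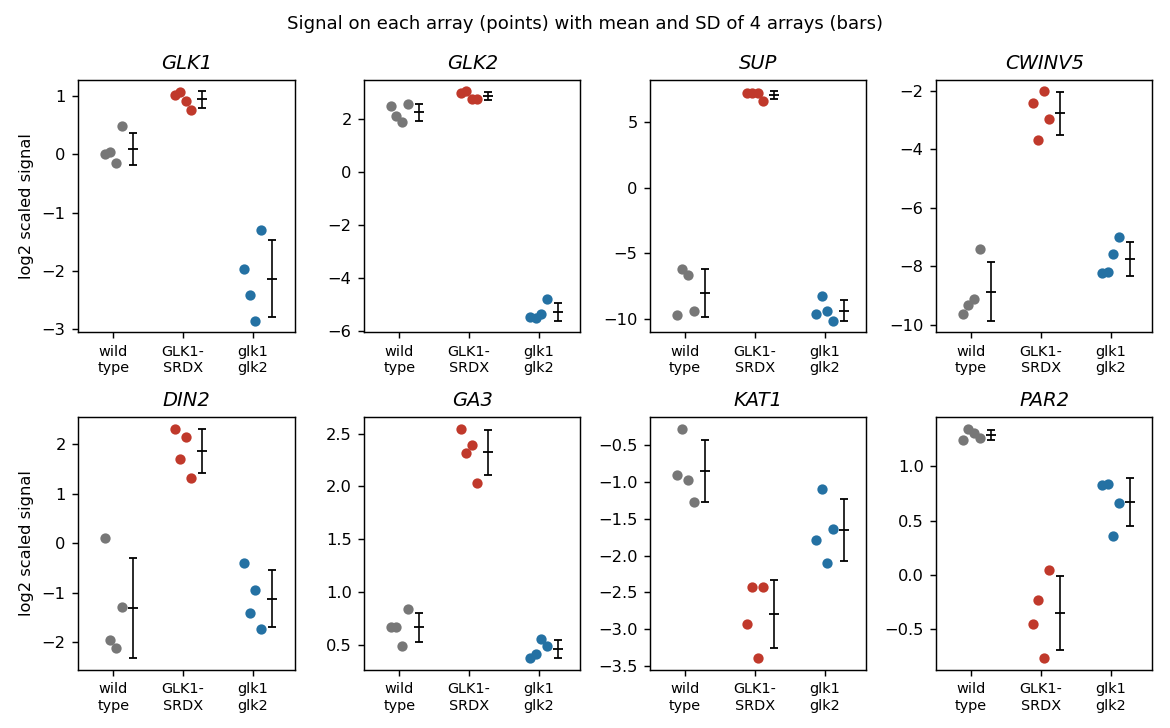
Log2 scaled signal of 8 genes on each array (points) with the mean and SD of 4 arrays (bars), for wild type, GLK1-SRDX and glk1 glk2; each panel has its own vertical scale. The GLK1 and GLK2 points of GLK1-SRDX sit just above wild type, while the SUP, CWINV5, DIN2, GA3, KAT1 and PAR2 points are clear of it.

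CWINV5 (AT3G13784), a gene of the cell-wall invertase family that cleaves sucrose outside the cell, was the next largest rise. It read -9.63, -9.31, -9.12 and -7.40 in wild type, where no array was above background, and -2.42, -3.69, -2.01 and -2.95 in GLK1-SRDX. The signal was at least 22.5-fold higher, with an adjusted p of 0.000168. Its neighbours NAP1;4 (-0.60, adjusted p = 0.0890) and CWINV1 (-0.27, adjusted p = 0.760) did not pass. Under normexp background correction the CWINV5 difference was 1.54 and no longer passed.

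Other large rises included enzymes and transcription factors. DIN2 (AT3G60140), a beta-glucosidase gene known for its induction by darkness and sugar starvation, read 0.11, -1.95, -2.11 and -1.28 in wild type and 2.32, 1.70, 2.14 and 1.31 in GLK1-SRDX. It rose 9.04-fold (3.18 ± 0.47, adjusted p = 0.00176), with every GLK1-SRDX array above every wild-type array. NIT2, a nitrilase gene, read 2.00, 1.78, 1.65 and 1.53 against 4.42, 3.41, 4.25 and 3.33 and rose 4.33-fold (2.11 ± 0.28, adjusted p = 0.000971). Rap2.6L, an ERF-family transcription factor gene tied to stress and wounding, rose 4.56-fold (2.19 ± 0.23, adjusted p = 0.000330). TH8, a thioredoxin gene, rose 5.99-fold with an adjusted p of 0.000559. ESR1 (AT1G12980), an ERF-family gene that promotes shoot regeneration, was above background on 1 of 4 wild-type arrays and rose at least 3.90-fold (adjusted p = 0.000538). TRM13, of a family of microtubule-associated proteins, rose 4.08-fold with an adjusted p of 0.000194. TH8 and TRM13 did not pass under normexp correction, and ESR1 was at -0.05 there.

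NATA1, which encodes an acetyltransferase of polyamine metabolism, was at least 6.17-fold higher (adjusted p = 0.0465), but without GLK1-SRDX replicate 1 its adjusted p was 0.105. CYP76C2, a cytochrome P450 gene, was at least 3.94-fold higher with an adjusted p of 0.0262 and 0.0734 without the same array. PEPC1, a phosphatase gene, was at least 3.15-fold higher with an adjusted p of 0.0273 and 0.0732 without wild-type replicate 2. NATA1 and CYP76C2 did not pass under normexp correction, and PEPC1 was at -0.12 there. Leaving out 1 of the 8 arrays compared ended the call of NATA1 in 7 cases. Of genes without a symbol, chosen after their values were seen, AT5G39520 rose 13.1-fold (adjusted p = 0.00162). AT5G55980 rose at least 3.52-fold and AT3G28560 at least 5.36-fold, both with no wild-type array above background. AT3G59270 rose at least 7.22-fold (adjusted p = 0.000336), with 3 of 4 wild-type arrays above background. The last 3 of these did not pass under normexp correction. In all, 15 genes that rose at least 2-fold were above background on no wild-type array.

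The largest falls with a gene symbol included several genes whose signal sank to background. CRK4, a cysteine-rich receptor-like kinase gene, read -2.99, -2.36, -1.78 and -2.98 in wild type and -5.17, -7.01, -9.55 and -7.21 in GLK1-SRDX. Its signal was at least 18.1-fold lower (adjusted p = 0.00224), with 2 of 4 GLK1-SRDX arrays above background. MES18, a methylesterase gene, read -4.24, -4.82, -5.43 and -3.95 in wild type and -9.02, -9.29, -8.56 and -8.28 in GLK1-SRDX, where no array was above background. The fall was at least 6.74-fold (adjusted p = 0.000189). In glk1 glk2, too, MES18 was above background on 0 of 4 arrays.

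PRF4, a profilin gene best known from pollen, fell at least 8.78-fold (adjusted p = 0.00406), with 2 of 4 GLK1-SRDX arrays above background. TPS03, a terpene synthase gene, fell at least 4.60-fold (adjusted p = 0.00602), and SWEET3, of a family of sugar transporters, at least 3.46-fold (adjusted p = 0.00706), both with no GLK1-SRDX array above background. FLA6, a fasciclin-like arabinogalactan protein gene, read -2.41, -2.19, -2.49 and -3.33 in wild type and -5.86, -6.23, -6.16 and -5.18 in GLK1-SRDX and fell 9.52-fold (adjusted p = 0.0116). PRF4, TPS03, SWEET3 and FLA6 did not pass against the wild-type arrays of slide 2 alone, nor FLA6 against those of slide 1. TPS03 and SWEET3 did not pass under normexp correction either. CHAT, which makes the leaf volatile hexenyl acetate, was at least 5.27-fold lower (adjusted p = 0.0162, and 0.0511 without wild-type replicate 1). FUM2, which encodes cytosolic fumarase and was chosen after its values were seen, read 2.5, 2.64, 2.14 and 1.83 against -1.06, -0.87, -1.26 and -0.31. It fell 8.90-fold (-3.15 ± 0.23, adjusted p = 0.000120), though by less on its second probe, which differed by -2.20 and was above background on all 12 arrays. FUM2 was 2.42 lower on the log2 scale in glk1 glk2, with a direct contrast of -0.74 (adjusted p = 0.0681). Across all genes, 47 that fell at least 2-fold were above background on no GLK1-SRDX array.

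**Figure D3:**
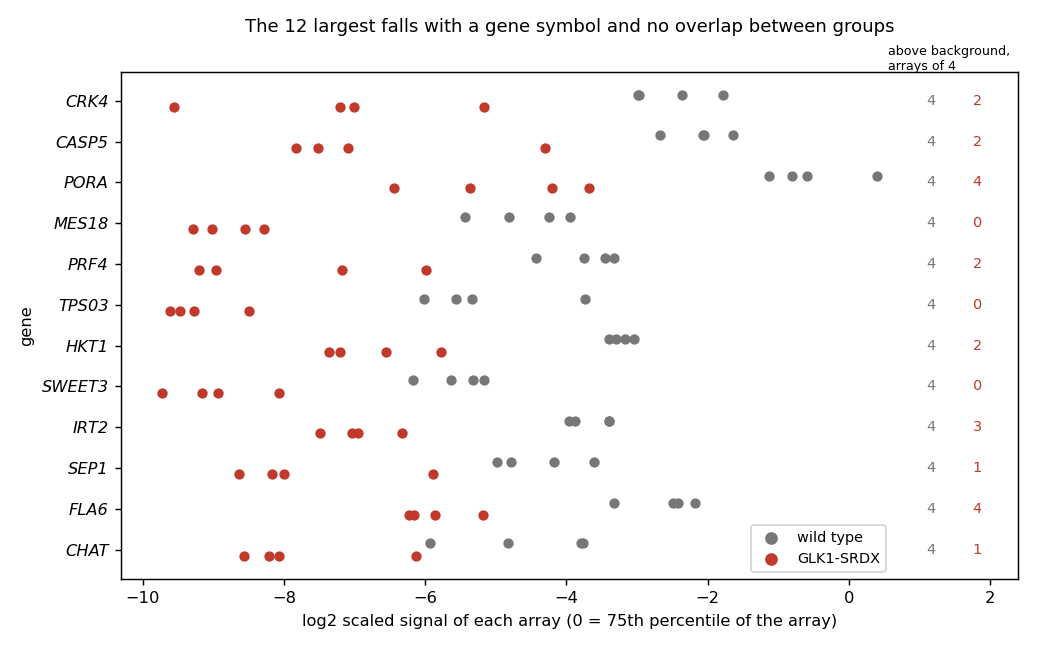
Log2 scaled signal of the 12 largest falls among genes with a symbol and no overlap between groups, on each wild-type array (grey) and GLK1-SRDX array (red), with the number of arrays of 4 well above background at the right. MES18, TPS03 and SWEET3 were above background on no GLK1-SRDX array and on all 4 wild-type arrays.

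Genes of the photosynthetic apparatus, the known targets of the GLK factors, mostly did not pass in GLK1-SRDX. Of 20 tested antenna genes 1 fell and none rose, against 6.3% falls and 8.1% rises of all tested genes, but 19 were below 0. The median difference was -0.25, and -0.06 under median scaling. With a glk1 glk2 array left out, which alters only the shared spread, up to 4 passed. The antenna gene that fell was LHCB4.3, for a minor antenna protein of photosystem II. LHCB4.3 read -0.11, -0.52, -0.50 and 0.20 in wild type and -1.53, -1.69, -2.03 and -1.73 in GLK1-SRDX, a fall of 2.85-fold (-1.51 ± 0.19, adjusted p = 0.000722). The major antenna genes LHCB2.1, LHCB2.2 and LHCB2.3, named after their values were seen and close copies that probes may not separate, differed by -1.46, -1.08 and -1.27 with adjusted p of 0.164, 0.248 and 0.160. In glk1 glk2 against the same wild type, where 671 genes or 3.25% of all tested genes changed, 16 of the 20 antenna genes fell with a median of -0.83. The direct contrast of GLK1-SRDX with glk1 glk2, which called 1911 genes or 9.26% of all tested, differed for 13 of the 20 with a median of 0.61.

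Among 31 nuclear genes of the photosystem cores and electron carriers, PSBQ-2 fell and the other 30 did not pass. This made 3.23% changed, beside 14.4% of all tested genes. The median was -0.18 and moved to 0.00 under median scaling. Of the 31, 26 were below 0, and up to 6 passed with a glk1 glk2 array left out. PSBQ-2, for an extrinsic protein of the oxygen-evolving complex, read 5.56, 5.71, 5.48 and 5.86 in wild type and 4.41, 4.60, 4.18 and 4.79 in GLK1-SRDX. The fall of 1.16 ± 0.14 on the log2 scale (adjusted p = 0.000722) was smaller than that of 2.46 in glk1 glk2, with a direct contrast of 1.3 (adjusted p = 0.000668). In glk1 glk2, where 3.25% of all tested genes changed, 13 of the 31 genes fell with a median of -0.63. Between the lines 10 differed, against 9.26% of all tested genes.

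Chlorophyll synthesis genes moved in both directions. Of 24 tested, 3 rose and 2 fell, against 8.1% and 6.3% of all tested genes, with a median of 0.26. With 1 of the 8 arrays left out 2 to 4 passed, 2 without GLK1-SRDX replicate 1 or 2 or wild-type replicate 1 or 2. PORA, a light-dependent protochlorophyllide oxidoreductase, read -0.59, -0.80, -1.13 and 0.39 in wild type and -3.68, -5.36, -6.44 and -4.21 in GLK1-SRDX. It fell 21.0-fold (-4.39 ± 0.55, adjusted p = 0.000707), beside -5.09 in glk1 glk2 and a direct contrast of 0.70 with an adjusted p of 0.490. GUN5, a subunit of magnesium chelatase, was lower by 0.89 on the log2 scale (adjusted p = 0.0337, and 0.0859 without GLK1-SRDX replicate 1). FLU, which restrains the first committed step of the pathway, rose 1.3-fold (0.38 ± 0.08, adjusted p = 0.0141), but did not pass against the wild-type arrays of either slide alone. HEMA1, the gene of that step, was 1.43-fold higher with overlapping groups (adjusted p = 0.0478, and 0.131 without GLK1-SRDX replicate 2). The median of the 24 genes was -0.27 in glk1 glk2, and 7 of them differed between the lines, against 9.26% of all tested genes.

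Of 19 tested Calvin cycle genes 17 were below 0, with a median of -0.17 that was 0.01 under median scaling. RBCS2B, a small subunit of Rubisco, fell 1.74-fold (-0.80 ± 0.16, adjusted p = 0.00850). It was the 1 of the 19 that changed, or 5.26% beside 14.4% of all tested genes. It did not pass under median scaling or against the wild-type arrays of either slide alone. In glk1 glk2 it differed by 0.52, and the direct contrast of -1.32 had an adjusted p of 0.000906. BBX16, a B-box transcription factor gene, read 1.1, 0.55, 0.43 and 1.8 in wild type and -0.63, -0.90, -0.92 and -0.51 in GLK1-SRDX. BBX16 fell 3.28-fold (adjusted p = 0.0115), against a fall of 3.59 on the log2 scale in glk1 glk2, and the direct contrast of 1.87 had an adjusted p of 0.00949. It was the 1 of 23 tested greening regulators that changed, or 4.35% beside 14.4% of all tested genes. BBX16 did not pass against the wild-type arrays of either slide alone. None of the 13 carotenoid, 12 photoprotection or 9 photorespiration genes tested passed, of which BETA-OHASE 1, a carotenoid hydroxylase (-0.62, adjusted p = 0.130), stress-enhanced protein 2 (-0.42, adjusted p = 0.184) and SHM1, a mitochondrial serine hydroxymethyltransferase (-0.41, adjusted p = 0.201), had the smallest p of their lists.

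**Figure D4:**
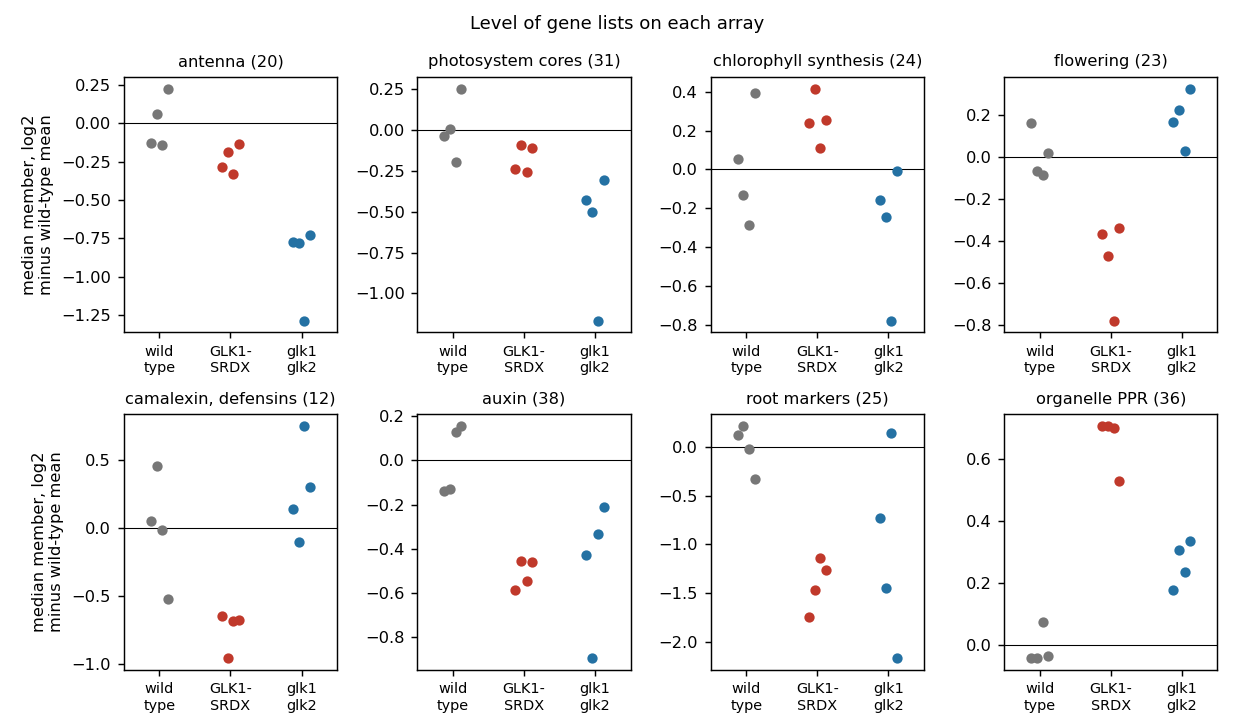
For 8 gene lists, each point is 1 array: the median over the list's tested members (their number in brackets) of the log2 signal minus the gene's wild-type mean, for wild type, GLK1-SRDX and glk1 glk2. GLK1-SRDX arrays lie between -0.33 and -0.14 for antenna genes, between -0.78 and -0.34 for flowering genes and between 0.53 and 0.71 for organelle pentatricopeptide repeat genes.

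Several of the rises with the smallest adjusted p were in genes of organelle RNA processing. Pentatricopeptide repeat (PPR) proteins bind RNA in chloroplasts and mitochondria and direct its editing, splicing and stability. A list of 36 genes known by name for this role was drawn up after the values were seen, so its count is a description only. Of the 36, 25 rose and none fell, against 8.1% rises among all tested genes, with a median difference of 0.70 and 35 of 36 above 0. Each GLK1-SRDX array was higher, with list medians from 0.53 to 0.71 against -0.04 to 0.07 on wild-type arrays.

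DOT4, required for editing in chloroplasts, read -3.45, -3.39, -3.34 and -3.44 in wild type and -1.89, -1.87, -2.01 and -2.18 in GLK1-SRDX. It rose 2.68-fold (1.42 ± 0.08, adjusted p = 1.60e-05), the smallest adjusted p after SUP. OTP81, another chloroplast editing factor, read -1.23, -1.13, -0.95 and -1.19 against 0.51, 0.29, 0.29 and -0.13 and rose 2.57-fold (adjusted p = 0.000223). OTP80, also of the chloroplast, rose 2.65-fold and SLG1, a mitochondrial editing factor, 2.38-fold, both with an adjusted p of 0.000120. Among the mitochondrial editing factors named MEF, 11 of 12 rose, from MEF19 at 0.48 to MEF3 at 1.07, and MEF8 at 0.17 did not pass. OTP86 (-0.48, adjusted p = 0.492) was the 1 member below 0.

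The count of 25 stayed between 24 and 25 when any of the 8 arrays was left out, and was 22 and 16 against the wild-type arrays of slide 1 and slide 2 alone. Under normexp correction 5 members passed and the median was 0.28, and DOT4, OTP80 and SLG1 did not pass while OTP81 did. The genes are dim: 8 of the 36 had a mean signal between -6 and -4, where 7 of them rose against 6.89% of all genes at that level. Between -4 and -2, 10 of 14 rose against 9.07%, and between -2 and 0, 8 of 13 against 8.67%. Since the list was drawn up after the values were seen, these counts too are a description only. In glk1 glk2, where 3.25% of all tested genes changed, the median of the 36 genes was 0.23 and 7 rose. Between the lines 20 of the 36 differed, against 9.26% of all tested genes, with a list median of 0.44. CYP78A5, a cytochrome P450 gene that promotes organ growth and was chosen after its values were seen, had a similarly small spread. It read -0.58, -0.51, -0.39 and -0.76 in wild type and 0.92, 0.73, 0.63 and 0.76 in GLK1-SRDX and rose 2.5-fold (adjusted p = 0.000120).

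Of 13 tested genes of shade-type growth 5 fell and none rose, against 6.3% falls among all tested genes. The other 8 did not pass, and the list's median was -0.33 with 4 members above 0. PAR2, an atypical helix-loop-helix gene induced by shade, read 1.25, 1.35, 1.31 and 1.26 in wild type and -0.45, -0.23, -0.77 and 0.05 in GLK1-SRDX and fell 3.11-fold (adjusted p = 0.000265). Its direct contrast with glk1 glk2 was -1.02 with an adjusted p of 0.00372. HFR1, a related regulator of shade responses named after its values were seen, read 0.26, 0.50, 0.53 and 0.28 against -1.24, -1.31, -1.08 and -0.77 and fell 2.81-fold (adjusted p = 0.000189). IAA29, an auxin response repressor induced by PIF factors, fell 8.47-fold (-3.08 ± 0.42, adjusted p = 0.00106). FHL, which carries phytochrome A into the nucleus, fell 2.89-fold (adjusted p = 0.00430), though not under normexp correction, and differed by -0.03 from glk1 glk2, with an adjusted p of 0.963. YUC8, an auxin synthesis gene, was 3.31-fold lower (adjusted p = 0.0232, and 0.0669 without GLK1-SRDX replicate 1).

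Of 38 tested auxin genes, 9 fell and none rose, against 6.3% falls of all tested genes. The median was -0.56, and 6 to 8 passed when 1 of the 8 arrays was left out. IAA19, an auxin response repressor, read 0.19, 0.02, 0.46 and 0.68 in wild type and -1.46, -1.5, -1.91 and -1.32 in GLK1-SRDX, a fall of 3.70-fold (adjusted p = 0.000596). IAA6 fell 3.32-fold (adjusted p = 0.00334) and YUC3, an auxin synthesis gene, 2.3-fold (adjusted p = 0.0105). YUC3 did not pass against the wild-type arrays of either slide alone. AUX1, an auxin influx carrier named after its values were seen, fell by 0.56 on the log2 scale and did not pass under median scaling. Of the 38 genes 1 differed between GLK1-SRDX and glk1 glk2, against 9.26% of all tested genes.

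Brassinosteroid genes showed 6 falls and no rise among 19 tested, against 6.3% falls of all tested genes, with a median of -0.41 and 3 to 6 passing with 1 array left out. The count was 3 without GLK1-SRDX replicate 1 or 3 or wild-type replicate 3. IBH1, a helix-loop-helix inhibitor of cell elongation, read -0.30, -0.39, -0.40 and -0.12 in wild type and -1.21, -1.18, -1.22 and -1.2 in GLK1-SRDX and fell 1.87-fold (adjusted p = 0.000529). PRE1, which counters such inhibitors, fell 3.99-fold (adjusted p = 0.0106), and BR6OX1, a late step of brassinosteroid synthesis, 2.42-fold (adjusted p = 0.00970). PRE1 did not pass against the wild-type arrays of slide 2 alone, and BR6OX1 against those of either slide alone or under normexp correction. PRE5 was 2.3-fold lower with an adjusted p of 0.0257 and 0.0746 without GLK1-SRDX replicate 1.

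Gibberellin synthesis and response genes held 1 rise and 2 falls among 27 tested, or 11.1% changed, which is below the 14.4% of all tested genes. GA3 (AT5G25900), which encodes ent-kaurene oxidase, read 0.67, 0.66, 0.49 and 0.83 in wild type and 2.55, 2.31, 2.39 and 2.04 in GLK1-SRDX. It rose 3.16-fold (1.66 ± 0.11, adjusted p = 0.000105), the third smallest adjusted p of all tested genes, and differed from glk1 glk2 by 1.87 (adjusted p = 1.32e-05). GA2, the enzyme step just before it, fell 1.5-fold (-0.59 ± 0.11, adjusted p = 0.00703), though not against the wild-type arrays of slide 1 alone. GA3OX1, which makes active gibberellins, read -2.24, -2.47, -2.32 and -2.21 against -3.73, -3.51, -2.99 and -3.31 and fell 2.1-fold (adjusted p = 0.00288).

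Among 22 tested ethylene genes 6 fell and 1 rose, against 6.3% and 8.1% of all tested genes, with a median of -0.21. ACS4 and ACS11, which encode ACC synthases, fell 4.08-fold (adjusted p = 0.00457) and 3.40-fold (adjusted p = 0.00927). ACO1, for the oxidase that makes ethylene from ACC, fell 2.84-fold (adjusted p = 0.0122). ACS8 was at least 4.02-fold lower (adjusted p = 0.0239, and 0.0624 without wild-type replicate 2). ACS11 differed from glk1 glk2 by -2.42, with an adjusted p of 0.00262. ACS11 did not pass against the wild-type arrays of either slide alone, nor ACO1 against those of slide 1. The number of ethylene genes that passed was 4 without wild-type replicate 2 or 3.

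In the cytokinin list 2 of 26 tested genes rose and 2 fell, or 15.4% changed beside 14.4% of all tested genes. A total of 2 passed without GLK1-SRDX replicate 1 or 2 or wild-type replicate 1. IPT9, a tRNA-type isopentenyltransferase gene, read 0.36, 0.36, 0.46 and 0.40 in wild type and 0.83, 1.03, 0.94 and 0.88 in GLK1-SRDX and rose 1.44-fold (adjusted p = 0.000571). LOG8, which releases active cytokinin, rose 1.45-fold (adjusted p = 0.00610). IPT5 was 3.3-fold lower (adjusted p = 0.0204, and 0.0613 without GLK1-SRDX replicate 2) and the response regulator gene ARR3 3.65-fold lower (adjusted p = 0.0499, and 0.137 without the same array). Of 27 cell division genes, the D-type cyclins CYCD3;1 (1.65-fold, adjusted p = 0.00113) and CYCD3;3 (1.28-fold, adjusted p = 0.00607) rose and none fell. This made 7.41% changed, below the 14.4% of all tested genes. Of 40 expansin and xyloglucan endotransglucosylase genes 2 rose and 3 fell, or 12.5% changed, also below 14.4%, and 1 passed without GLK1-SRDX replicate 1 or 2. Among them EXPA15, an expansin gene for loosening cell walls, rose 2.36-fold (adjusted p = 0.0167). LOG8, CYCD3;3 and EXPA15 did not pass against the wild-type arrays of slide 2 alone. XTH17 was 2.5-fold lower with an adjusted p of 0.0181 and 0.0557 without GLK1-SRDX replicate 1.

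**Figure D5:**
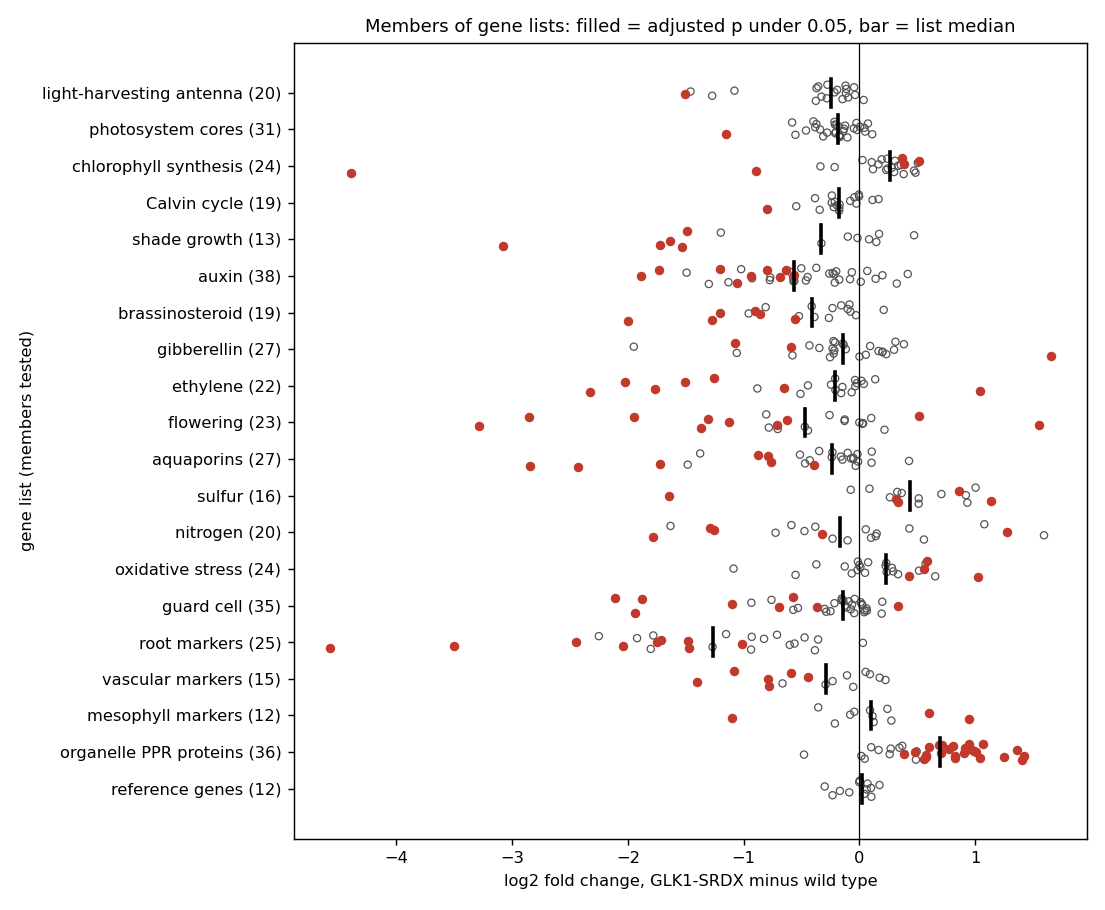
Log2 difference, GLK1-SRDX minus wild type, of the tested members of 20 gene lists, 1 point per gene; filled points passed an adjusted p of 0.05, open points did not, and black bars are list medians. Filled points lie on the left for shade, auxin, brassinosteroid, aquaporin, root and vascular genes and on the right for organelle PPR genes and oxidative stress genes.

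Guard-cell genes answer to the study's interest in stomata. Of 35 tested genes for guard-cell transport and signalling, 7 fell and 1 rose, against 6.3% falls and 8.1% rises of all tested genes, with a median of -0.14 that was 0.05 under median scaling. With 1 of the 8 arrays left out 3 to 7 passed, 3 of them without wild-type replicate 1. KAT1 (AT5G46240), an inward potassium channel of guard cells, read -0.90, -0.27, -0.97 and -1.28 in wild type and -2.93, -2.42, -3.40 and -2.43 in GLK1-SRDX. It fell 3.84-fold (-1.94 ± 0.29, adjusted p = 0.00173) and differed from glk1 glk2 by -1.14 (adjusted p = 0.0316). Its close relative KAT2 read -4.26, -4.01, -4.10 and -4.17 against -4.91, -4.33, -5.03 and -4.39. Groups did not overlap, but the difference of -0.53 had an adjusted p of 0.0688.

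AKT1, a potassium channel chiefly of roots, differed by -0.93 (adjusted p = 0.0536) and the outward channel GORK by -0.29 (adjusted p = 0.217), both without overlap and neither passing. AKT2 (-0.30, adjusted p = 0.714), the anion channel gene SLAC1 (-0.15, adjusted p = 0.513) and the kinase gene OST1 (0.05, adjusted p = 0.855) had overlapping groups. MYB61, a transcription factor that promotes stomatal closure, read -3.03, -3.01, -3.15 and -3.49 in wild type and -5.68, -5.77, -4.62 and -5.04 in GLK1-SRDX and fell 4.31-fold (adjusted p = 0.0115). It did not pass against the wild-type arrays of either slide alone. SLAH1, of the SLAC1 family, was 3.68-fold lower (adjusted p = 0.0176, and 0.0561 without GLK1-SRDX replicate 2), and its second probe differed by -2.01 beside -1.88. CA1, a carbonic anhydrase gene abundant in mesophyll and guard cells, was 2.14-fold lower (adjusted p = 0.0168, and 0.0514 without wild-type replicate 1).

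Stomatal lineage genes changed little: of 18 tested 1 rose and 1 fell, or 11.1% against 14.4% of all tested genes. Among them EPFL9, whose peptide (stomagen) promotes stomatal formation, read 0.72, 0.49, 0.85 and 0.94 in wild type and 1.73, 1.59, 1.57 and 1.62 in GLK1-SRDX. EPFL9 rose 1.84-fold (adjusted p = 0.00118), beside 0.63 on the log2 scale in glk1 glk2 and a direct contrast of 0.25 with an adjusted p of 0.241. MYB88, which limits divisions of the lineage, was 2.37-fold lower (adjusted p = 0.0227, and 0.0613 without wild-type replicate 1). Of 25 tested abscisic acid genes 2 rose and 2 fell, or 16% changed beside 14.4% of all tested genes. None of the abscisic acid genes passed without GLK1-SRDX replicate 1 or 3 or wild-type replicate 2. NCED3, the main stress-induced step of abscisic acid synthesis, was 2.26-fold lower (adjusted p = 0.0358, and 0.0966 without GLK1-SRDX replicate 2), and HAI1, a phosphatase gene of the response, 2.14-fold higher (adjusted p = 0.0229, and 0.0664 without wild-type replicate 1). Leaving out 1 of the 8 arrays compared ended the call of NCED3 in 6 cases. NCED3 also did not pass under median scaling, quantile normalization or normexp correction, or in the authors' deposited series values.

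Flowering genes mostly fell where they changed. Of 23 tested genes of the floral transition 8 fell and 2 rose, against 6.3% and 8.1% of all tested genes. The median was -0.47, and 5 to 9 passed with 1 of the 8 arrays left out, 5 without GLK1-SRDX replicate 1 or 2. SEP1, a MADS-box gene of floral organs, read -3.61, -4.79, -4.99 and -4.17 in wild type and -8.64, -8.00, -8.17 and -5.89 in GLK1-SRDX and fell at least 5.78-fold (adjusted p = 0.00311), with 1 of 4 GLK1-SRDX arrays above background. SOC1, which integrates flowering signals, read 2.93, 3.02, 2.87 and 3.02 against 1.72, 1.95, 1.59 and 2.08 and fell 2.18-fold (adjusted p = 0.000571). FUL fell 2.58-fold (adjusted p = 0.00138) and SEP4 2.48-fold (adjusted p = 0.00177), and these and SOC1 were named after their values were seen.

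FT, the mobile signal of flowering, was at least 3.23-fold lower (adjusted p = 0.0265, and 0.0792 without GLK1-SRDX replicate 2). AP1, a gene of floral meristems, was at least 1.43-fold lower (adjusted p = 0.0170, and 0.0544 without the same array), from a wild-type signal above background on 2 of 4 arrays. FLC, a repressor of FT and SOC1, rose: it read -3.75, -3.25, -3.33 and -2.43 in wild type and -1.34, -1.53, -1.8 and -1.87 in GLK1-SRDX, a rise of 2.94-fold (adjusted p = 0.00367). FLC did not pass against the wild-type arrays of slide 2 alone or under normexp correction. HB51, a meristem identity gene chosen after its values were seen, rose 2.97-fold (adjusted p = 0.000223) and was at 0.04 under normexp correction. The list's median in glk1 glk2 was 0.20. Between the lines 10 of the 23 genes differed, against 9.26% of all tested genes, with a list median of -0.76. Among them were SOC1 (-1.26, adjusted p = 0.000527) and FUL (-2.08, adjusted p = 0.000266).

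Defence lists differed in their share of changed genes, with 26.1% for salicylate and 33.3% for camalexin and defensins against 14.4% of all tested genes. Of 23 tested salicylate genes 4 rose and 2 fell, with a median of -0.04 and against 8.1% rises and 6.3% falls of all tested genes, and 2 passed without GLK1-SRDX replicate 2. SARD1, a transcription factor that activates salicylate synthesis, read -5.02, -5.79, -6.61 and -4.72 in wild type and -3.01, -3.78, -3.35 and -4.25 in GLK1-SRDX and rose 3.83-fold (adjusted p = 0.0129). PR5, a pathogenesis-related protein gene, rose 2.15-fold (adjusted p = 0.0141). Neither passed under normexp correction or against the wild-type arrays of slide 2 alone. PR5 also did not pass against those of slide 1 alone or in the authors' deposited series values, nor SARD1 with the replicate number as a block. PR1 was at least 1.29-fold higher (adjusted p = 0.0319, and 0.0838 without wild-type replicate 2), and was at -0.55 under normexp correction. WRKY18 was 2.45-fold higher with overlapping groups (adjusted p = 0.0313, and 0.0884 without GLK1-SRDX replicate 2).

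Of 12 tested camalexin and defensin genes 4 fell and none rose, against 6.3% falls overall. The median was -0.75 with 5 members above 0, and ORA59 alone passed without GLK1-SRDX replicate 2 or 3 or wild-type replicate 1 or 2. ORA59, an ERF-family activator of the defensin genes, read 0.33, 0.45, 0.44 and 0.57 in wild type and -0.51, -0.77, -1.11 and -0.75 in GLK1-SRDX and fell 2.35-fold (adjusted p = 0.00271). Its direct contrast with glk1 glk2 was -1.51 with an adjusted p of 0.00144. PDF1.2c, a plant defensin gene with close copies, was 3.94-fold lower (adjusted p = 0.0293) and PDF1.3 3.91-fold lower (adjusted p = 0.0399). Without wild-type replicate 1 their adjusted p were 0.0809 and 0.105. PDF1.2c read -1.41 and -1.44 on wild-type replicates 1 and 2, of slide 1, and -3.45 and -3.31 on replicates 3 and 4, of slide 2.

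Jasmonate genes showed 2 rises and 1 fall among 23 tested, or 13.0% changed, below the 14.4% of all tested genes. VSP2, a vegetative storage protein gene induced by jasmonate, read 2.78, 2.81, 2.94 and 3.05 in wild type and 1.70, 1.95, 0.81 and 1.49 in GLK1-SRDX and fell 2.66-fold (adjusted p = 0.00297). AOC1, of the enzyme family that makes the jasmonate precursor OPDA, rose at least 3.97-fold (adjusted p = 0.0102), with 3 of 4 wild-type arrays above background, but did not pass under normexp correction. LOX2, an early step of the same pathway, was 2.04-fold higher (adjusted p = 0.0380, and 0.107 without GLK1-SRDX replicate 2). Leaving out 1 of the 8 arrays compared ended the call of LOX2 in 7 cases. Of the 29 glucosinolate genes 1 rose and 1 fell, or 6.9% changed.

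Of 24 tested oxidative stress genes 4 rose and none fell, which makes 16.7% changed beside 14.4% of all tested genes. The median was 0.23, and 4 to 6 passed with 1 of the 8 arrays left out. FSD2, an iron superoxide dismutase of chloroplasts, read 0.54, 0.36, 0.44 and 0.82 in wild type and 1.59, 1.62, 1.61 and 1.46 in GLK1-SRDX and rose 2.04-fold (1.03 ± 0.11, adjusted p = 0.000348). It differed from glk1 glk2 by 0.83 (adjusted p = 0.00155). APX1, the main cytosolic ascorbate peroxidase, rose 1.5-fold (adjusted p = 0.0123), SAPX, the stromal one, 1.47-fold (adjusted p = 0.00675) and CSD3, which detoxifies superoxide with copper and zinc, 1.35-fold (adjusted p = 0.0147). SAPX was 0.76 higher on the log2 scale in glk1 glk2 and differed by -0.20 between the lines, with an adjusted p of 0.264. APX1 and CSD3 did not pass against the wild-type arrays of either slide alone, nor SAPX against those of slide 2. In the authors' deposited series values APX1, SAPX and CSD3 did not pass, and APX1 did not pass under normexp correction either. ROXY2, a glutaredoxin gene, fell at least 2.23-fold (adjusted p = 0.0127), though not under normexp correction, with the replicate number as a block or against the wild-type arrays of slide 2 alone.

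Nutrient transporters changed in both directions. Of 16 tested sulfur genes 4 rose and 1 fell, against 8.1% and 6.3% of all tested genes. The median was 0.44, and 2 passed without GLK1-SRDX replicate 2. SULTR2;1, a low-affinity sulfate transporter of the vasculature, read 2.22, 1.73, 2.41 and 2.32 in wild type and 3.46, 3.40, 3.15 and 3.23 in GLK1-SRDX and rose 2.2-fold (adjusted p = 0.00309). SULTR1;1, a high-affinity transporter of roots, read -4.83, -4.44, -4.45 and -4.99 against -6.28, -6.92, -6.08 and -6.01 and fell 3.12-fold (adjusted p = 0.00232), though not under normexp correction. Both differed from glk1 glk2, by 1.14 (adjusted p = 0.00421) and -1.14 (adjusted p = 0.0193).

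In the nitrogen list 4 of 20 tested genes fell and 1 rose, against 6.3% and 8.1% of all tested genes. A total of 3 passed without GLK1-SRDX replicate 2 or 4 or wild-type replicate 2 or 4. The ammonium transporter gene AMT1;2 fell 2.45-fold (-1.29 ± 0.17, adjusted p = 0.000975) while AMT2, of the other ammonium transporter type, rose 2.42-fold (1.28 ± 0.18, adjusted p = 0.00149). AMT2 read 0.41, 0.41, 0.69 and -0.07 in wild type and 1.87, 1.61, 1.63 and 1.43 in GLK1-SRDX. GLN1;4, a cytosolic glutamine synthetase, read -2.56, -2.46, -2.42 and -2.58 against -4.39, -4.59, -3.70 and -4.49 and fell 3.45-fold (adjusted p = 0.00178). NIA1, a nitrate reductase gene, was 2.39-fold lower (adjusted p = 0.0483, and 0.116 without GLK1-SRDX replicate 3). It lost its call whichever of the 8 arrays compared was left out. NIA1 also did not pass under median scaling, under normexp correction or in the authors' deposited series values.

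Iron genes showed 4 falls and 1 rise among 26 tested, against 6.3% and 8.1% of all tested genes, with a median of -0.31. In glk1 glk2, where 3.25% of all tested genes changed, the iron median was -0.73, and 9 fell and 2 rose. Without GLK1-SRDX replicate 1, 3 or 4 or wild-type replicate 1 or 2 only 1 iron gene passed. FIT, the master regulator of iron uptake, was 2.38-fold lower (adjusted p = 0.0468, and 0.117 without GLK1-SRDX replicate 1). IRT2, of an iron transporter family, was at least 9.12-fold lower (adjusted p = 0.0496, and 0.117 without GLK1-SRDX replicate 1). FIT and IRT2 lost their calls whichever of the 8 arrays compared was left out. BHLH100 was 8.02-fold lower with overlapping groups (adjusted p = 0.0415, and 0.112 without wild-type replicate 1) and was higher than in glk1 glk2, where it was above background on 0 of 4 arrays (adjusted p = 0.00503). FER4, a ferritin gene for iron storage named after its values were seen, rose 1.92-fold (adjusted p = 0.00255), beside 0.84 on the log2 scale in glk1 glk2.

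Of the tested sugar genes 11.5% changed and of the starch genes 16.7%, beside 14.4% of all tested genes. DIN11, a dioxygenase gene of sugar starvation, read 0.89, 0.72, -0.57 and -0.20 in wild type and -1.41, -1.71, -2.59 and -1.41 in GLK1-SRDX and fell 3.98-fold (adjusted p = 0.00675), the opposite direction to DIN2, though not against the wild-type arrays of slide 2 alone. Of 26 tested sugar genes 1 rose and 2 fell. Starch genes showed 3 rises and 1 fall among 24, and none passed without GLK1-SRDX replicate 1 or 2 or wild-type replicate 1. Single members changed in the cold (COR15A, higher), heat (HSP70, higher), flavonoid (TT7, lower), phenylpropanoid (PAL4, lower) and phosphate (SQD1, higher) lists, and each lost its call when some arrays were left out. Of the 20 circadian clock genes none passed, and RVE1 had the smallest p of them (-0.66, adjusted p = 0.144).

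Aquaporin genes, for water channels of the plasma membrane and vacuole, fell in 7 cases and rose in none among 27 tested, against 6.3% falls of all tested genes, with a median of -0.24. With 1 of the 8 arrays left out 6 or 7 passed. TIP2;3 read 1.26, 1.41, 1.07 and 1.08 in wild type and -2.15, -2.06, -1.46 and -0.88 in GLK1-SRDX and fell 7.18-fold (adjusted p = 0.0106). TIP2;2 read 2.98, 3.04, 2.90 and 2.90 against 0.96, 1.13, 1.28 and 1.54 and fell 3.31-fold (adjusted p = 0.000975). Both are tonoplast aquaporins expressed chiefly in roots. PIP2;2 fell 1.83-fold (adjusted p = 0.00355) and PIP1;1, named after its values were seen, 1.70-fold (adjusted p = 0.000666). TIP2;3 did not pass against the wild-type arrays of either slide alone, nor PIP2;2 against those of slide 2. PIP2;4 was 5.40-fold lower (adjusted p = 0.0360, and 0.0993 without GLK1-SRDX replicate 2).

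Markers of root tissue were lower in the GLK1-SRDX seedlings. Of 25 tested root markers out of 26 listed, 9 fell and none rose, against 6.3% falls of all tested genes, with a median of -1.27. The list median lay between -1.75 and -1.14 on GLK1-SRDX arrays and between -0.33 and 0.21 on wild-type arrays. Summed over the markers, the scaled linear signal was 6.28 to 9.92 in GLK1-SRDX and 14.4 to 21.9 in wild type. All 4 wild-type arrays were above background for 24 of the 25 markers and all 4 GLK1-SRDX arrays for 20, and no marker was at background on every GLK1-SRDX array. In glk1 glk2 the list median was -1.01 and 0 markers passed, and its arrays spread from -2.17 to 0.14.

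CASP5, which builds the Casparian strip of the root endodermis, read -2.07, -1.64, -2.06 and -2.67 in wild type and -7.83, -7.51, -7.10 and -4.30 in GLK1-SRDX and fell at least 20.04-fold (adjusted p = 0.00263). HKT1, a sodium transporter of root xylem parenchyma, read -3.16, -3.40, -3.29 and -3.04 against -7.36, -7.20, -6.56 and -5.77 and fell at least 10.8-fold (adjusted p = 0.00181). Each was above background on 2 of 4 GLK1-SRDX arrays. SKOR, a potassium channel that loads the xylem, fell 5.45-fold (adjusted p = 0.00544). Between GLK1-SRDX and glk1 glk2, 2 of the 25 root markers differed, against 9.26% of all tested genes, with a list median of -0.17. These were CASP5 and HKT1, lower than in glk1 glk2 (adjusted p = 0.0150 and 0.0200). SKOR differed by -1.36 with an adjusted p of 0.0827. SKOR did not pass against the wild-type arrays of slide 2 alone. With 1 of the 8 arrays left out 4 to 7 root markers passed, 4 without any one of these arrays other than wild-type replicate 4. The aquaporins TIP2;2 and TIP2;3, and SULTR1;1, AMT1;2 and IRT2, are also expressed mainly in roots, and the part of the lower root markers in their values was not tested. In whole-seedling RNA, fewer cells of a type and less RNA per cell cannot be told apart.

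Vascular markers showed 6 falls and no rise among 15 tested, against 6.3% falls of all tested genes, with a median of -0.29, but 0 passed without GLK1-SRDX replicate 1 and 1 or 2 passed without GLK1-SRDX replicate 3 or 4 or wild-type replicate 1 or 3. XCP1, a protease of xylem vessels, was 2.64-fold lower (adjusted p = 0.0238, and 0.0661 without GLK1-SRDX replicate 1), and IRX5, a cellulose synthase of secondary walls, 1.71-fold lower (adjusted p = 0.0185, and 0.0567 without wild-type replicate 1). Shoot and mesophyll markers had a median of 0.10 over 12 tested, and 25% of them changed beside 14.4% of all tested genes. Of these, AS1 (1.52-fold, adjusted p = 0.00194) and GRF5 (1.93-fold, adjusted p = 0.0142), regulators of leaf development, rose and CA1 was lower. GRF5 did not pass against the wild-type arrays of either slide alone. None of 13 epidermis and trichome markers passed, with a median of -0.01, and PDF1, of the outer cell layer, had the smallest p of them (0.52, adjusted p = 0.0688). None of 12 reference genes passed either, with a median of 0.02, and ACT2 was at -0.30 with an adjusted p of 0.0911.

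Against glk1 glk2 as well as wild type, 1164 of the 2972 genes changed in GLK1-SRDX, 752 of them higher than both and 400 lower than both. Both comparisons use the same GLK1-SRDX arrays. Genes higher than both included SUP and CWINV5, with adjusted p of 1.71e-06 and 0.000445 in the direct contrast, DIN2 (2.98 above glk1 glk2, adjusted p = 0.00361) and GA3. AT5G39520 was 5.57 above glk1 glk2 (adjusted p = 0.000332), where it lay 1.87 below wild type. Lower than both were CRK4 (adjusted p = 0.00254), TPS03 (adjusted p = 0.00546), CHAT (adjusted p = 0.00518), PRF4 (adjusted p = 0.0123) and SEP1 (adjusted p = 0.0171), all with GLK1-SRDX arrays not above background, so no size of the difference is given. For PORA, FHL and YUC8 the direct contrast had adjusted p of 0.490, 0.963 and 0.991, with differences of 0.70, -0.03 and 0.01.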

How the data were processed

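Each sample was hybridised to a one-colour Agilent 4x44k array. Per the file headers, the deposited scanner files hold spot intensity values with the local background already subtracted, and the submitters' processing notes name Agilent Feature Extraction, version 9.1.3.1, as the software. A deposited series table holds linear intensity values of the same arrays. Each equalled the scanner value divided by a constant that differed between genotypes, 973.9 in wild-type columns, 1077 in the double mutant's and 891.7 in the repressor line's. The columns were not centred and had medians of 0.0798 to 0.168, and the choice of those constants is not stated. Other per-spot marks, which the authors deposited as 0 or 1, gave detection and outlier spots.

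The log2 of each intensity was taken and the array's 75th percentile over non-control spots subtracted. Probes were kept when well above background on at least 4 arrays and unmarked on at least 3 of each group. Of 37478 probes 26236 carried a locus, and each of 20640 tested loci was represented by its brightest kept probe, 20169 of them having 1 probe. limma 3.58.1 (R 4.3.3) fitted 3 group means to 12 arrays with 9 residual degrees of freedom, empirical Bayes and Benjamini-Hochberg adjustment, two-sided at 0.05. The fit was tested on simulated data. The number of arrays limits the precision.

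A bound ("at least") compares the brighter group's mean with the lowest signal among probes well above background on each array, or the gene's own where higher. Under normexp correction the differences of CWINV5, ESR1, PEPC1 and PR1 lay below their bounds. Named genes were GLK1, GLK2 and 7 guard-cell genes always, the 12 largest rises and falls with a symbol and no overlap, and per list at most 4 members that passed (largest change first), or else the member of smallest p. Members and gene lists were chosen with earlier results of these data known. Alternatives were median scaling, quantile normalization, normexp correction (offset 50, on the median spot signal since the mean was not among the columns used), the series table, 2 other detection filters, the mean of probes, the 8 arrays alone, slide or replicate number as a block, the wild type of 1 slide, and leaving out each array. Same-numbered GLK1-SRDX and wild-type arrays deviated from their group means with correlations of -0.06, -0.20, 0.26 and 0.01. These values do not settle whether the replicate numbers pair the samples.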

Additional observations from a re-analysis of the deposited data

Results flagged for a closer look

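Among 328 groups of 4 arrays, each the values of 1 named gene in GLK1-SRDX or wild type, 12 held an array far from the other 3 by Dixon's criterion, and chance alone gives about 1 in 20 groups. In SUP, GLK1-SRDX replicate 4 read 6.61 against 7.17 to 7.18 on the others. The same array read -3.23 for NCED3, against -3.94 to -3.88, and GLK1-SRDX replicate 3 read 1.77 for stress-enhanced protein 2, against 1.98 to 1.99.

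Wild-type replicate 3 stood apart in 5 genes. It was lowest in Rap2.6L at -3.67 against -3.03 to -2.97, in AOC1 at -6.89 against -5.36 to -5.21, and in APX1 at 4.41 against 4.60 to 4.63. It was highest in YUC3 at -1.99 against -2.53 to -2.45, and in ARR3 at -3.77 against -4.63 to -4.50. Wild-type replicate 4 was lowest in ROXY2 at -6.29 against -5.51 to -5.35 and in PIP2;4 at 0.41 against 1.14 to 1.27. Wild-type replicate 2 read -6.61 for HB51 against -6.07 to -6.03, and wild-type replicate 1 read 2.03 for DPE1 against 2.13 to 2.15.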

How the results depend on the processing

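Of 147 named genes that passed, 40 passed under each of up to 24 alternatives that gave the gene a value, and 88 whichever GLK1-SRDX or wild-type array was left out. The count of 2972 changed genes was 1578 under normexp correction, 909 in the series table, 1073 and 735 against the wild type of slide 1 and slide 2, and 1523 to 4444 with 1 of the 12 arrays left out, highest without glk1 glk2 replicate 3. It was 4414 under median scaling, 3038 under quantile normalization, 2324 without the filter and 4439 with the 8 arrays alone. The 56.2% share of rises was 78.9% under median scaling and 66.9% against slide 1. The 1911 genes that differed from glk1 glk2 were 1154, 614 and 1263 under median scaling, under normexp and with the wild type of slide 2, and 1005 to 2684 with 1 array left out.

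GLK1 passed at 1.03 under median scaling, at 0.91 under normexp and at 0.85 with the 8 arrays alone or slide as a random block. The slide block cannot adjust this comparison for slide, since all GLK1-SRDX arrays shared a slide. Its estimated correlation within slides was -0.042, and 3577 genes changed under it. With 1 array left out GLK1 lay between 0.76 and 0.97 and passed without glk1 glk2 replicate 3 (adjusted p = 0.0234) or 4 (0.0158). GLK2 passed at 0.81 under median scaling, at 0.78 under normexp and at 0.62 with all 8 arrays above background, the 8 arrays alone or slide as a random block. With 1 array left out GLK2 lay between 0.49 and 0.72 and passed without wild-type replicate 4 (adjusted p = 0.0436) or glk1 glk2 replicate 3 (0.0483) or 4 (0.0210).

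With 1 array left out, the members that passed were 6 to 15 for auxin, 3 to 8 for brassinosteroid, 6 to 10 for aquaporin, 5 to 10 for flowering, 4 to 15 for root and 0 to 7 for vascular genes. Under normexp there were 2 brassinosteroid, 4 flowering, 5 root and 3 vascular members, and in the authors' series values 2 auxin, 3 brassinosteroid, 2 aquaporin, 5 flowering, 4 root and 0 vascular members. Against the wild type of slide 1 there were 3 auxin, 2 brassinosteroid, 6 flowering, 4 root and 0 vascular members, and against slide 2 there were 3 brassinosteroid, 2 aquaporin, 4 flowering, 2 root and 1 vascular. The 8 arrays alone gave 17 auxin, 11 aquaporin and 16 root members, and no filter gave 5 root members.

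In the 8-array fit with a replicate block, 2526 genes changed with 45.8% rises, GLK1 passed at 0.85, and 15 root and 2 vascular members passed. The correlations of deviations do not settle whether the numbers pair the samples, and replicate 3 alone correlated best with its own number.

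Direction turned for SLAC1 under median scaling (0.032), quantile normalization (0.054) and the wild type of slide 2 (0.012). AKT2 turned with slide 1 (0.074), and ranged from -0.47 without wild-type replicate 2 to 0.078 without wild-type replicate 4. OST1 turned under normexp (-0.060) and with slide 1 (-0.12), and ranged from -0.020 without wild-type replicate 3 to 0.11 without wild-type replicate 2. Under normexp the direction turned for ESR1 (-0.046), PEPC1 (-0.12), PR1 (-0.55) and RLP37 (-0.20). The cause was not tested in any of these cases, though settings with fewer wild-type arrays also have fewer samples. Promoter motifs and their alternative window were not run, since no promoter sequences are used here. Genes near background are the least certain: their folds are bounds, and several dim rises and falls did not pass under normexp.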
